A study of Mus musculus with 8 samples.

Results

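The 9 genes described here were grouped by their role in microglia, the resident macrophages of the brain: the 3 chains of complement C1q (C1qa, C1qb and C1qc), the signalling pair Trem2 and Tyrobp, the cytoskeletal marker Aif1 (Iba1), and the surface receptors Csf1r, Cx3cr1 and P2ry12. They were chosen by gene symbol, without reference to a threshold but with earlier results of these data known. Comparisons of their counts with all tested genes are therefore descriptions. All 9 were found among the 19201 genes of the deposited table. RNA was sequenced from the hippocampi of wild-type mice of the C57BL/6 strain and of Mbd2-/- mice on the same background, which lack the methyl-CpG reader Mbd2. Both genotypes were 10 to 12 weeks old littermates from heterozygous parents, untreated, with males and females balanced between the groups. There were 4 libraries per genotype, and each library pooled the hippocampi of 2 mice. The deletion is constitutive, so neurons, glia and microglia all carry it, and exon 1 of Mbd2 remains in the allele.

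Microglia take up debris, prune synapses and depend throughout life on signals from neighbouring cells. Csf1r receives the survival ligands Csf1 and Il34, Cx3cr1 receives the neuronal chemokine Cx3cl1, and P2ry12 senses the nucleotides released by injured or active cells. Trem2 binds lipids and lipoproteins and has no signalling tail of its own, and it relies on the adaptor Tyrobp (DAP12). C1q is the recognition molecule of the classical complement pathway and is assembled from equal parts of its A, B and C chains. In the brain, microglia make most of it, and it tags synapses for removal. In whole hippocampus, more microglia and more RNA per microglia cannot be told apart.

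The 3 C1q genes stand side by side on mouse chromosome 4 in the order C1qb, C1qc and C1qa, all on the minus strand, over 18.7 kb of the mm9 assembly. Gaps of 3616 bases (C1qb to C1qc) and 2851 bases (C1qc to C1qa) separate them. In mm9 and the GENCODE vM1 annotation, C1qa spans chr4:136451832-136454718, C1qb chr4:136436044-136442102 and C1qc chr4:136445719-136448980. Upstream sequence is shown for both C1q genes that had an entry in the RefSeq promoter table (GRCm38.p6), because these chains changed in the same direction. It is also shown for P2ry12 and Cx3cr1, which had their own patterns. Each stretch holds the 250 bases before the annotated start, 5′ to 3′ on the strand of the gene. Capitals mark AGGAAGT or its reverse complement ACTTCCT, a core bound by ETS factors such as PU.1 (Spi1), the master regulator of microglia.
C1qb (chr4:136886201-136886450, minus strand): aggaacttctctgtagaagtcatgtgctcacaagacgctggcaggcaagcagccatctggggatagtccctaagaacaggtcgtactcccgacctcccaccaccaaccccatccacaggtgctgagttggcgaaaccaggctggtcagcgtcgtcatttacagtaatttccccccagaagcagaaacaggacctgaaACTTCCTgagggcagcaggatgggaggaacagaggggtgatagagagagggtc
C1qc (chr4:136892915-136893164, minus strand): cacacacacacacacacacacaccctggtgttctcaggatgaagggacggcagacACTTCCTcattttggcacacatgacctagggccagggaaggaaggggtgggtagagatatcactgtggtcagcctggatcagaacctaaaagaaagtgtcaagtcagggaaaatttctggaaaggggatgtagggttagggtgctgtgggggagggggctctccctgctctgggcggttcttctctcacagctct
P2ry12 (chr3:59262986-59263235, minus strand): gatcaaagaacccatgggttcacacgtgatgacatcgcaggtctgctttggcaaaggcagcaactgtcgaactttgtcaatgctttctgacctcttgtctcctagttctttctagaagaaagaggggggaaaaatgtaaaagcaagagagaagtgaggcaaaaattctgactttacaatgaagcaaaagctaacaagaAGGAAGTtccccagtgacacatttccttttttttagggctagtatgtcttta
Cx3cr1 (chr9:120068297-120068546, minus strand): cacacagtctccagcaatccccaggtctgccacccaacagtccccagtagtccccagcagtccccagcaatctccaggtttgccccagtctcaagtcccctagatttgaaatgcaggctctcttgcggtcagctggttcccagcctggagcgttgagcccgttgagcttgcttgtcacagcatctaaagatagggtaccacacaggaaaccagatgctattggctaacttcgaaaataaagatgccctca
Of the 9 members, 6 had an entry, and C1qa, Tyrobp and Csf1r were not matched. AGGAAGT was found on either strand in 3 of the 6 (C1qb, C1qc and P2ry12) and in 7.69% of the 32851 promoters of the table. In P2ry12 the first capital lies 52 bases before the start, in C1qb 53 bases and in C1qc 195 bases. The longer GAGGAAGT, which contains it, was found in C1qc alone (2.44% of all promoters), and the composite element of GGAA and GAAA with 2 bases between them in 0 of the 6 (2.30%). Other strings that overlap AGGAAGT were also searched. AGAGGAAGT was in 0 of the 6 (0.798% of all promoters), GAGGAA in 4 (23.3%) and GGAAGT in 3 (19.7%). The 6 stretches held between 1 and 6 CpG dinucleotides, the sites that Mbd2 reads when methylated, beside a median of 6 over all promoters. These matches are letters in a window and were not tested for binding or methylation.

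The libraries held 8087750 to 23790825 reads on genes, and the members were well covered, from 26 reads for Aif1 in the lowest library to 3017 for Csf1r in the highest. Mbd2 itself averaged 346 ± 34.4 normalized counts in wild-type hippocampi and 260.0 ± 54.3 in the Mbd2-/- ones (SD, n = 4), with a log2 fold change of -0.43 (adjusted p = 0.0174, limma). The highest Mbd2-/- library (339) overlapped the lowest wild-type one (295). Reads over the whole gene include the intact exon. Fold changes are Mbd2-/- over wild-type on log2(normalized count + 1), and a gene is called when limma gives it an adjusted p under 0.05 over all 14504 tested genes. The labels do not say whether libraries of a group came from separate cohorts, so p-values measure the spread between these pools. Mbd2-/- replicate 4 stood apart. Across 14186 tested genes with a known length, the log2 deviation from the wild-type mean followed transcript length with a Spearman's rho of -0.48, -0.43 and -0.48 in Mbd2-/- replicates 1 to 3, of -0.10 in replicate 4, and between -0.07 and 0.06 in the wild-type libraries. Short transcripts were thus higher in 3 of the 4 Mbd2-/- libraries, and the counts of called members are given with and without replicate 4 and with the length trend removed.

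All 9 microglia genes had positive log2 fold changes, from 0.13 in Csf1r to 0.63 in Aif1 with a median of 0.29, beside a median of -9.1e-05 over all tested genes. Of the 9, 6 rose (Aif1, C1qa, C1qb, Tyrobp, C1qc and Cx3cr1) and 0 fell (8 higher and 0 lower at an unadjusted p under 0.05, and again 6 and 0 with edgeR or DESeq2), where 12.0% of all tested genes were called higher and 10.0% lower. The other 3, Csf1r, Trem2 and P2ry12, were not called. In 5 of the 9 members every Mbd2-/- library exceeded every wild-type library, as in 12.1% of tested genes. Without Mbd2-/- replicate 4, 8 of the 9 rose (all but P2ry12), with 17.9% of tested genes called higher. In single-library omissions the count was lowest, at 3, without Mbd2-/- replicate 2, where 8.07% of tested genes were called higher. After correction on the longest transcript, in which the length trend is taken out of each library, 3 of the 9 were called higher. These were Cx3cr1, Csf1r and Trem2, where 8.09% of tested genes were called higher and 6.8% lower. The result depends on the length measure. By the median transcript 5 were called higher, where 9.52% of tested genes were called higher and 9.59% lower. Those 5 were Cx3cr1, Csf1r, C1qa, C1qb and Aif1, and Trem2, with a median transcript of 1072 bases, was not called.

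**Figure D1:**
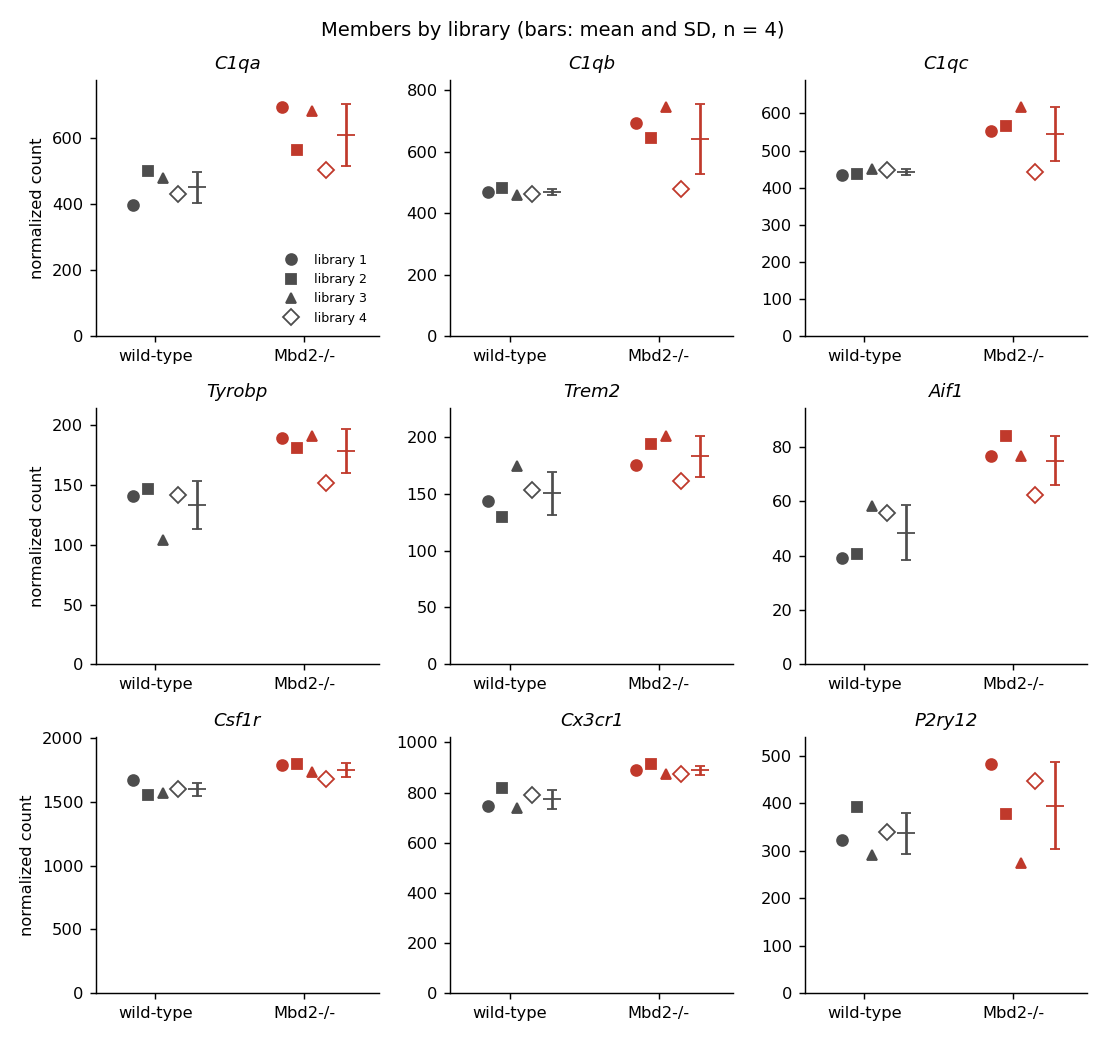
Normalized counts (y axes from 0) of the 9 microglia genes in the 4 wild-type and 4 Mbd2-/- libraries, with marker shapes for replicates 1 to 4 and bars for the mean and SD. In C1qb and C1qc the 4 wild-type values lie close together (SD 10.6 and 7.30) and Mbd2-/- replicate 4, the open diamond, lies among them at 479.5 and 442.0.

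The C1q chains rose by 1.22 to 1.35-fold. C1qa, the A chain, had 395.7, 499.6, 478.6 and 429.7 normalized counts in wild-type replicates 1 to 4 and 693.4, 562.4, 680.6 and 501.6 in Mbd2-/- replicates 1 to 4. The groups did not overlap, but only 2 normalized counts separated the lowest Mbd2-/- library from the highest wild-type one. Its means were 451 ± 47.0 and 609.5 ± 93.0 (SD, n = 4), that is 0.43 higher on the log2 scale (SE 0.10, limma adjusted p = 0.00747), and 0.52 without Mbd2-/- replicate 4. C1qb, the B chain, had 469.1, 482.3, 459.4 and 460.5 in wild-type and 692.1, 645.6, 744.3 and 479.5 in Mbd2-/- libraries. The first 3 Mbd2-/- libraries stood far above the wild-type range and the fourth fell inside it. The log2 fold change of C1qb was 0.43 (SE 0.10, limma adjusted p = 0.00798), and without Mbd2-/- replicate 4 it was 0.57 (adjusted p = 1.95e-07). C1qc, the C chain, had 434.7, 437.1, 449.4 and 447.2 in wild-type and 552.9, 567.0, 616.8 and 442.0 in Mbd2-/- libraries. Here too the fourth Mbd2-/- library lay in the wild-type range. C1qc changed by 0.29 on the log2 scale (SE 0.08, limma adjusted p = 0.0224) and lost its call when any single library except Mbd2-/- replicate 4 was left out (largest adjusted p = 0.0755), whereas C1qa and C1qb kept theirs in 8 of 8 omissions.

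The ratios between the chains overlapped between the genotypes. The log2 ratio of C1qa to C1qb was -0.06 ± 0.14 in the wild-type and -0.07 ± 0.12 in the Mbd2-/- group (SD, n = 4), a difference of -0.01. The ratios of C1qa to C1qc and of C1qb to C1qc were both 0.14 higher in Mbd2-/- libraries, and the groups overlapped in all 3 ratios. After each library was taken as a deviation from its genotype mean, C1qb and C1qc correlated with a Pearson's r of 0.95, C1qa and C1qb with 0.77 and C1qa and C1qc with 0.67. The SDs of C1qb and C1qc were 10.6 and 7.30 in wild-type and 115 and 73.7 in Mbd2-/- libraries. Much of their shared deviation thus lay between Mbd2-/- replicate 4 and the rest of its group. These are descriptions over 8 libraries, in which all genes share depth and normalization. Averaged over the 3 chains, Mbd2-/- replicates 1 to 4 lay 0.50, 0.38, 0.58 and 0.07 above the wild-type mean on the log2 scale. The first 3 values came from the libraries with a strong length trend and the lowest from the library with a weak one.

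**Figure D2:**
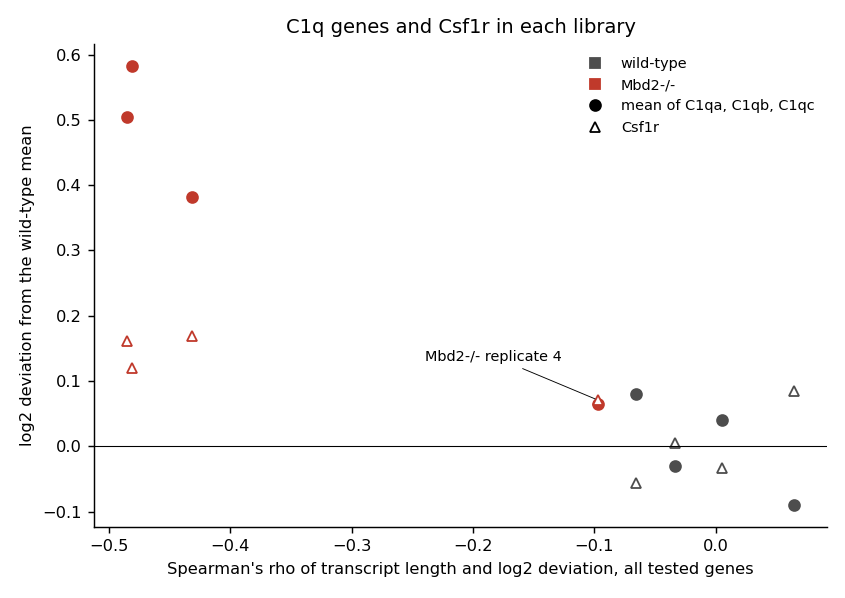
Log2 deviation from the wild-type mean (y axis) of the averaged C1q genes (filled circles) and of Csf1r (open triangles) in each library, against the Spearman's rho of transcript length and log2 deviation over all tested genes in that library (x axis). At the left lie 3 Mbd2-/- libraries with C1q between 0.38 and 0.58, and Mbd2-/- replicate 4 lies near the wild-type libraries at 0.07.

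Tyrobp, the membrane adaptor that carries the activating motif for Trem2 and other receptors, lies at chr7:31198807-31202596 (mm9, plus strand). It had 140.9, 146.7, 103.9 and 141.8 normalized counts in wild-type and 189.0, 181.1, 191.3 and 151.8 in Mbd2-/- libraries. All Mbd2-/- values lay above all wild-type values, with wild-type replicate 3 below the rest of its group. The log2 fold change was 0.42 (SE 0.12, limma adjusted p = 0.0167), and the call was lost without wild-type replicate 3 (0.31, adjusted p = 0.0623) or Mbd2-/- replicate 1 (adjusted p = 0.0572) or 2 (0.0507). Trem2, its lipid-sensing partner (chr17:48485726-48493472, mm9, plus strand), had 143.9, 129.4, 174.1 and 153.0 in wild-type and 174.9, 193.9, 200.8 and 161.4 in Mbd2-/- libraries. The groups overlapped, since Mbd2-/- replicate 4 lay below wild-type replicate 3. Its log2 fold change was 0.29 (SE 0.11) and was not called (adjusted p = 0.0612, limma), although it was without wild-type replicate 3 (adjusted p = 0.0390) or Mbd2-/- replicate 4 (0.0113). The log2 ratio of Trem2 to Tyrobp was 0.18 ± 0.40 in the wild-type and 0.04 ± 0.10 in the Mbd2-/- group (SD, n = 4), with overlap.

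Aif1 encodes an actin-binding protein used as the standard stain for microglia and lies at chr17:35307936-35313013 (mm9, minus strand). It was the least covered member, with 39.0, 40.6, 58.3 and 55.8 normalized counts in wild-type and 76.6, 84.1, 76.5 and 62.5 in Mbd2-/- libraries. The groups did not overlap, and the difference was the largest of the 9, with a log2 fold change of 0.63 (SE 0.16, limma adjusted p = 0.00999) that was called in 8 of 8 single-library omissions (0.72 without Mbd2-/- replicate 4).

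Of the other surface receptors, Cx3cr1 rose, and Csf1r and P2ry12 were not called. Csf1r, the growth factor receptor without which microglia die, was the most covered member, with 1670, 1551, 1571 and 1602 normalized counts in wild-type and 1788, 1797, 1736 and 1678 in Mbd2-/- libraries. The groups did not overlap, but the lowest Mbd2-/- library was level with the highest wild-type one. The log2 fold change was 0.13 (SE 0.05, limma adjusted p = 0.0749), and Csf1r was called only without Mbd2-/- replicate 4 among the single-library omissions (0.15, adjusted p = 0.0134). It lies on the plus strand at chr18:61265226-61291803 (mm9), 9436 kb from Mbd2, and overlaps Hmgxb3 on the other strand, whose log2 fold change was -0.12. Cx3cr1, the fractalkine receptor (chr9:119957811-119977400, mm9, minus strand), had 747.9, 816.3, 737.5 and 789.8 in wild-type and 891.3, 913.6, 875.0 and 874.5 in Mbd2-/- libraries. All 4 Mbd2-/- libraries, replicate 4 included, lay above the wild-type range. Cx3cr1 rose by 0.20 on the log2 scale (SE 0.06, limma adjusted p = 0.0179), and its call was lost without wild-type replicate 1 (adjusted p = 0.0605) or 3 (0.0664) or Mbd2-/- replicate 2 (0.0628). P2ry12, the ADP receptor that guides microglial processes, had 322.2, 392.7, 290.8 and 339.9 in wild-type and 482.7, 376.8, 274.1 and 447.8 in Mbd2-/- libraries. Its Mbd2-/- values spread on both sides of the wild-type range, with the lowest of all 8 libraries in Mbd2-/- replicate 3. The log2 fold change was 0.21 (SE 0.15, limma adjusted p = 0.339), and it was called without Mbd2-/- replicate 3 alone (0.37, adjusted p = 0.0147). P2ry12 lies at chr3:59020193-59066753 (mm9, minus strand) inside Med12l, which runs on the other strand and had a log2 fold change of 0.01. The counting tool is not given in the sources used here, so reads of such overlapping pairs may not be fully separated.

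Per kilobase of the longest transcript, the wild-type levels in normalized counts were 434 for C1qa, 430.0 for C1qb, 367.5 for C1qc, 340.0 for Csf1r, 236 for Tyrobp, 207 for Cx3cr1, 144 for P2ry12, 55.3 for Aif1 and 31.4 for Trem2. Over single wild-type libraries C1qa ranged from 380.5 to 480.4 and enclosed the range of C1qb, so their order cannot be given, and Tyrobp (184 to 260.1) enclosed Cx3cr1 (198 to 219). The other neighbours in this order did not overlap. For genes with several annotated transcripts the level depends on the length used. By the median transcript, Trem2 was at 140.0 and Csf1r at 517.

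Transcript length was set against each change, because shorter genes were higher in Mbd2-/- hippocampi as a whole. Over all 14186 genes, length and log2 fold change had a Spearman's rho of -0.46, and over the 9 members it was -0.78, a description across genes that share libraries. In the shortest of 20 equal bins of length, which holds Tyrobp and Aif1, 43.2% of genes were called higher. In the next bin, which holds the 3 C1q genes, it was 33.3%, and in the bin of Csf1r and Trem2 it was 4.65%. Read against genes of their own length, the calls of the 5 short members thus meet a much higher background than 12.0%.

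All 9 members lay above the median of their own length bin, by 0.05 to 0.36 on the log2 scale, with a median excess of 0.20. The bin medians were 0.29 for Tyrobp and Aif1, 0.24 for the C1q genes, 0.05 for P2ry12, -0.04 for Cx3cr1 and -0.07 for Csf1r and Trem2. By the longest transcript C1qc stood at percentile 62.8 of its bin and Trem2 at 96.1. Aif1 stood at percentile 94.5, C1qb at 89.3, Cx3cr1 at 89.1, C1qa at 88.3, Csf1r at 86.6, P2ry12 at 81.1 and Tyrobp at 76.1. The order depends on the length measure, since in bins of the median transcript Trem2 was lowest, at 78.7, with C1qc at 79.3 and Aif1 highest at 98.6. The 9 members also all exceeded their bin medians when bins were built on the median transcript (median excess 0.24) or on the summed exons (0.17).

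**Figure D3:**
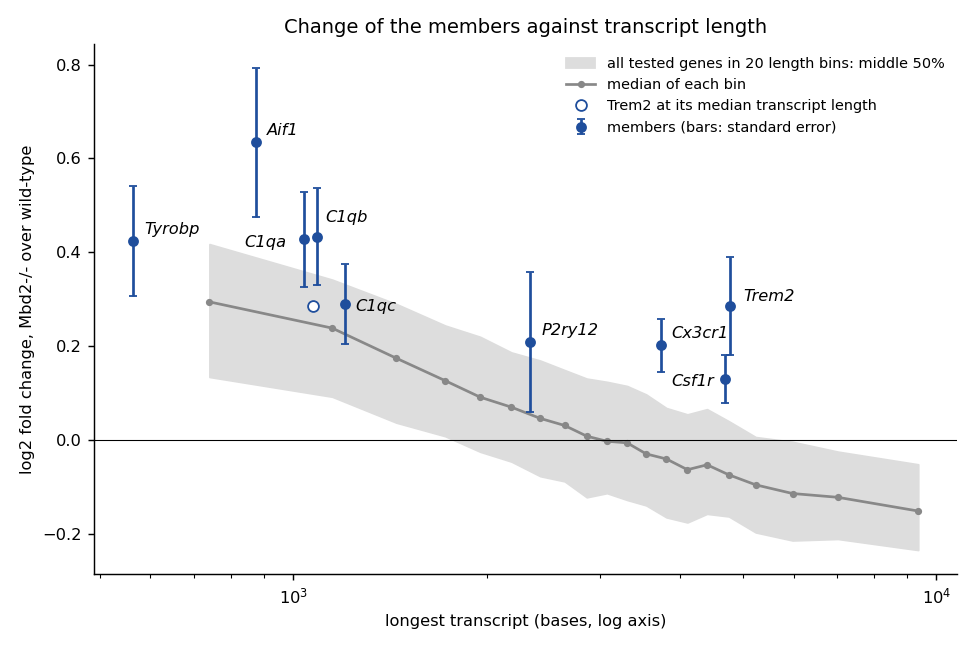
Log2 fold change of each microglia gene (blue, bars for the standard error) against its longest transcript on a log axis, with the median (grey line) and middle 50% (grey band) of all tested genes in 20 length bins. The 9 genes lie above the line, and the short ones at the left sit over bins whose own medians are 0.24 to 0.29.

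With the trend on the longest transcript removed from each library, the 9 log2 fold changes stayed positive, from 0.07 to 0.36 with a median of 0.19. Cx3cr1 was called at 0.23 (adjusted p = 0.00605, limma), Csf1r at 0.19 (0.0121) and Trem2 at 0.35 (0.0314). Tyrobp was 0.08 (adjusted p = 0.674), C1qc 0.07 (0.487), C1qa 0.18 (0.121), C1qb 0.20 (0.0816) and Aif1 0.36 (0.117), and these 5 lost their calls. Cx3cr1 kept its call in 8 of 8 single-library omissions under this correction and Csf1r in 7, the exception being without Mbd2-/- replicate 2 (adjusted p = 0.0519). Trem2 kept it in 2, without wild-type replicate 3 and without Mbd2-/- replicate 4.

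The length measure decided the calls of Trem2, C1qa, C1qb and Aif1. The annotation lists 4 transcripts for Trem2, the longest of 4784 bases and the median of 1072, and by the median length its corrected change was 0.19 (adjusted p = 0.203, limma). By the same median length the corrected changes were 0.33 for C1qa (adjusted p = 0.0151), 0.34 for C1qb (0.0131), 0.54 for Aif1 (0.0206, and 0.46 with 0.0439 by summed exons), 0.27 for Cx3cr1 (0.00283) and 0.18 for Csf1r (0.0202). Of the members, 5 were then called higher, where 9.52% of tested genes were called higher and 9.59% lower. Only Cx3cr1 and Csf1r were called under both length measures, and Cx3cr1 alone was called with and without the corrections.

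**Figure D4:**
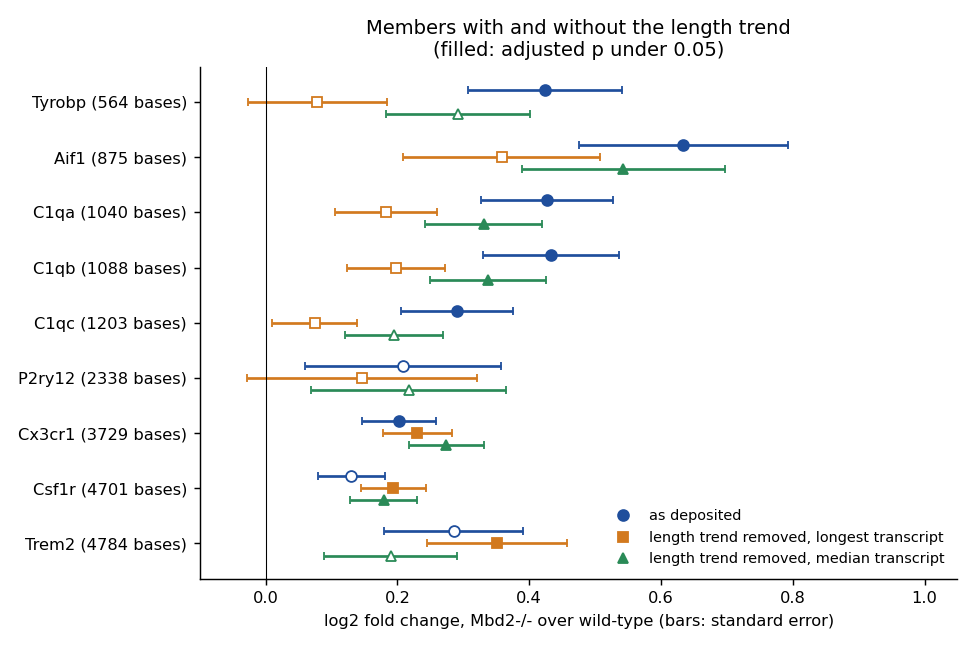
Log2 fold change with its standard error for each microglia gene, ordered from the shortest (top) to the longest transcript, as deposited (circles) and after removal of the length trend by the longest (squares) or median transcript (triangles), with filled symbols for an adjusted p under 0.05. Tyrobp moves from 0.42 to 0.08 and Cx3cr1 from 0.20 to 0.23.

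Within genotypes the 9 genes did not vary as 1 block. Of the 36 pairwise correlations of deviations from the genotype means, 12 were negative, 8 exceeded 0.5 and the median was 0.24. Trem2 and Aif1 had an r of 0.82, and Trem2 and P2ry12 of -0.78. The 5 tested genes with deviations most like the mean of the members were 1700096K18Rik (r = 0.99), Pkp2, Slc25a25, Trp53i11 and Sept5 (each 0.98, over 8 libraries), none of which stands in a microglia list. They are the highest values of a search over all tested genes with few libraries, so a high r is in part a product of that search. The 30 further microglia genes had a median r of 0.06 with that mean and all tested genes 0.02.

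A list of 30 further microglia genes was tested in full. Of them 8 rose and 0 fell (12 higher and 1 lower at an unadjusted p under 0.05, 8 and 0 by edgeR, 9 and 0 by DESeq2), and the median log2 fold change was 0.10, so that 8 of 30 compares with 12.0% of all genes. Ctss, a lysosomal cysteine protease, had 634.0, 632.7, 619.9 and 617.7 normalized counts in wild-type and 744.5, 885.2, 855.9 and 807.2 in Mbd2-/- libraries, with no overlap (log2 fold change 0.39, adjusted p = 0.000598, limma). Fcer1g, an adaptor of the same kind as Tyrobp, rose by 0.62, Ly86 by 0.51, the fructose transporter Slc2a5 by 0.47, and Rgs10, a regulator of G protein signalling, by 0.40. Fcer1g (adjusted p = 0.112, limma), Ly86 (0.170) and Rgs10 (0.353) were not called with the trend on the longest transcript removed, whereas Fcer1g (0.0129) and Ly86 (0.0242) were called by the median transcript and Rgs10 (0.0411) by summed exons. Without Mbd2-/- replicate 4, 11 of the 30 were called higher and 2 lower, beside 17.9% and 17.7% of all genes. Fcgr3 and Tmem119, which the naming rule left out and which were added after their values were seen, were also called, at 0.47 and 0.32, but in only 4 and 2 of the 8 single-library omissions. Fcgr3 lost its call without wild-type replicate 1, 3 or 4 or Mbd2-/- replicate 1, and Tmem119 without any library except Mbd2-/- replicates 2 and 4. With the trend on the longest transcript removed neither was called (adjusted p = 0.191 for Fcgr3 and 0.0550 for Tmem119, limma). The same held by the median transcript (0.0591 and 0.0700) and by summed exons (0.123 and 0.0680). With the length trend removed 3 were called higher, Ctss and Slc2a5 among them, and 1 lower, Cd33, an inhibitory lectin (-0.41, adjusted p = 0.0495, limma), beside 8.09% and 6.8% of all genes. By the median transcript 6 were called higher and 0 lower (Cd33 adjusted p = 0.0804), beside 9.52% and 9.59%. The genes that were not called ranged widely. Itgam (0.03), Sall1 (0.04), Siglech (0.07) and Tgfbr1 (-0.0023) had small values. Larger ones were found in Gpr34 (0.44), P2ry13 (0.29), Selplg (0.27), Csf3r (-0.21) and Ptprc (-0.36). These genes were also named after their values were seen. Summed over the 30 genes, wild-type libraries held 7151 to 7339 and Mbd2-/- libraries 8014 to 8441 normalized counts.

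**Figure D5:**
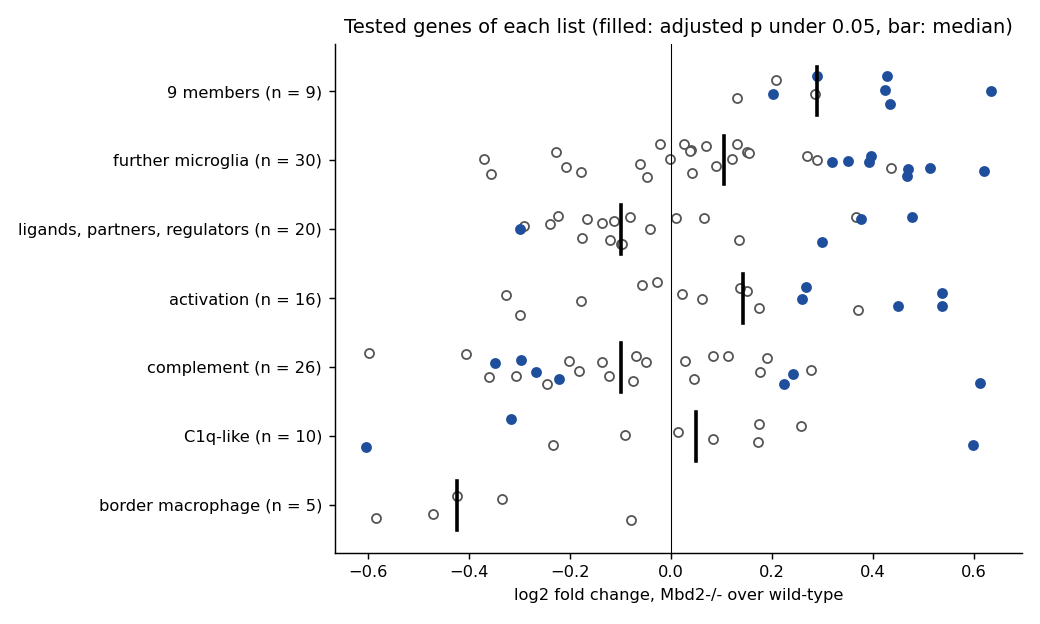
Log2 fold change of every tested gene of the members and of 6 further lists, with filled points for an adjusted p under 0.05 and a black bar for the median of each list. The members have a median of 0.29, further microglia genes of 0.10, and complement genes of -0.10.

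Among ligands, partners and regulators of the members, Cx3cl1 fell and Apoe rose. Of 22 listed genes 20 were tested, 3 rose and 1 fell, with a median log2 fold change of -0.10, where 12.0% of all tested genes were called higher and 10.0% lower. Neither ligand of Csf1r was called. Csf1 had 412 ± 24.5 normalized counts in the wild-type and 399.8 ± 14.3 in the Mbd2-/- group (SD, n = 4, log2 fold change -0.04), and Il34 had 471 ± 17.5 and 495 ± 45.9 (0.07). Cx3cl1, the neuronal ligand of Cx3cr1, fell. It had 6535, 6523, 6769 and 6453 in wild-type and 5681, 5566, 5311 and 4828 in Mbd2-/- libraries, with no overlap and a log2 fold change of -0.30 (SE 0.05, limma adjusted p = 0.00108) that was -0.29 with the length trend removed. Ligand and receptor thus had opposite signs. Apoe, a lipoprotein bound by Trem2 and made mostly by astrocytes, had 13816, 15487, 15600.2 and 14166 in wild-type and 22659, 20704, 22279.5 and 17032 in Mbd2-/- libraries. It rose by 0.48 (adjusted p = 0.000711, limma) and by 0.29 with the length trend removed (adjusted p = 0.000662). Gnai2, an inhibitory G protein subunit through which P2ry12 and Cx3cr1 signal, rose by 0.30, and the myeloid factor Irf8 by 0.38 (adjusted p = 0.0455, limma). Irf8 was not called by edgeR (adjusted p = 0.0533) or DESeq2 (0.102) and was called in only 2 of the 8 single-library omissions, without wild-type replicate 2 or Mbd2-/- replicate 4. Hcst, an adaptor whose gene neighbours Tyrobp, stayed under the minimum of 10 normalized counts (1.78 and 2.19 on average) and was not tested.

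Complement genes other than C1q were called about as often as all tested genes. Of 34 listed complement genes 33 were in the table and 26 were tested, of which 3 rose, 4 fell and 19 were not called, with a median log2 fold change of -0.10, beside 12.0% of all tested genes called higher and 10.0% lower. C3, the component on which the pathways converge, had 47.1 ± 5.96 normalized counts in the wild-type and 50.4 ± 10.0 in the Mbd2-/- group (SD, n = 4, log2 fold change 0.08), and C4b, which C1q activation cleaves through C1s, had 715 ± 39.8 and 650.5 ± 37.2 (-0.14), neither called. The complement receptor chains Itgam (0.03) and Itgb2 (-0.12) were also not called, and these 4 genes were named after their values were seen. The genes that rose were Cd59a, an inhibitor of the membrane attack complex (0.61), Clu, a chaperone that restrains the same complex (0.24), and C1qbp, a mitochondrial protein that binds C1q heads (0.22). The genes that fell were Sez6 (-0.35), Sez6l2 (-0.30), Sez6l (-0.27) and Csmd1 (-0.22), neuronal membrane proteins that limit complement deposition. C1qbp kept its call in only 1 of the 8 single-library omissions, without Mbd2-/- replicate 4, and Csmd1 lost its call without wild-type replicate 3 (adjusted p = 0.0598, limma). With the length trend removed 2 were called higher (Clu and Cd59a) and 3 lower (Sez6, Sez6l2 and Sez6l), beside 8.09% and 6.8% of all genes. By the median transcript 2 were called higher and 5 lower, beside 9.52% and 9.59%, and C4b (-0.23, adjusted p = 0.0133, limma) and C2 (adjusted p = 0.0408), named after their values were seen, were then among the lower ones. Without Mbd2-/- replicate 4, 4 complement genes were called higher and 8 lower, where 17.9% and 17.7% of tested genes were.

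Genes of microglial activation were partly higher and partly under the minimum. Of 25 listed genes 16 were tested, of which 5 rose and 0 fell (6 higher and 1 lower at an unadjusted p under 0.05, 5 and 0 by edgeR or DESeq2), with a median log2 fold change of 0.14, where 12.0% of all tested genes were called higher and 10.0% lower. The 5 that rose were Cd9 (0.54), Cd63 (0.54), the ferritin chain Fth1 (0.45), the protease Ctsd (0.27) and the receptor Axl (0.26), all of which other brain cells also express. The cytokine genes Il1b, Tnf, Ccl2, Ccl3 and Ccl4 and the disease-associated genes Cst7 and Clec7a stayed under the minimum in these libraries and were not tested. With the length trend removed 6 were called higher and 2 lower (Spp1 at -0.49, adjusted p = 0.0424, and Lyz2 at -0.38, adjusted p = 0.0216, limma), beside 8.09% and 6.8% of all genes, and by the median transcript 6 and 0, beside 9.52% and 9.59%.

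Markers of other cells that could supply these transcripts were measured beside the members. Border macrophages of the meninges, vessels and choroid plexus share Csf1r and C1q with microglia. Of their 10 markers 5 were tested, all 5 with negative log2 fold changes (median -0.42) and 0 called by limma, edgeR or DESeq2 (2 lower at an unadjusted p under 0.05). Their summed level was 180.1 to 200.1 normalized counts in wild-type and 142 to 158 in Mbd2-/- libraries. Of 14 blood leukocyte markers 3 were tested, the granulocyte genes S100a8, S100a9 and Ngp, and all 3 rose by limma (1 by DESeq2). These transcripts are short, and with the length trend removed 1 of the 3 was called (8.09% of all genes), and 2 by the median transcript (9.52%). Their list summed to 62.7 to 80.5 in wild-type and 91.3 to 125 in Mbd2-/- libraries, and the T cell, B cell and NK cell markers were at 0 or a few counts, with Klrb1c at 0 in all 4 Mbd2-/- libraries. All 12 choroid plexus markers rose, with sums of 24051 to 25759 in wild-type and 46516 to 53088 in Mbd2-/- libraries, and 8 of 10 thalamus markers fell. Of 10 markers each, 7 astrocyte genes rose, 4 oligodendrocyte genes rose and 1 fell, and 2 endothelial genes rose, where 12.0% of all tested genes were called higher and 10.0% lower. After removal of the length trend 9 astrocyte, 4 oligodendrocyte and 3 endothelial genes were called higher and 0 of these lists lower, beside 8.09% and 6.8% of all genes. Of the 10 hippocampal neuron markers 1 rose and 3 fell, and the counts were again 1 and 3 by the longest transcript, and 0 and 1 by the median transcript, where 9.52% and 9.59% of all genes were called. The part of cell composition or dissection in the microglia results was not tested.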

How the data were processed

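Total RNA from hippocampi, depleted of ribosomal RNA with the Ribominus kit, was read as paired ends of 100 bases. The authors removed duplicated reads, aligned to mm9 with STAR and used DESeq2 (versions and counting tool are not given in the sources used here). The deposited signal is a normalized count per library, made by dividing reads by a DESeq2 size factor, and a deposited mean covers the 8 libraries. The log2 fold changes, the scores (Wald statistic and standard error) and the p-values deposited by the authors were not used. In each library 100% of values were whole multiples of the smallest value above 0 to within 0.01 of a read, so reads were recovered (1 read is 0.531 to 1.59 normalized counts). Totals cover counting error only. No 2 libraries of a genotype were alike, with 1.97 to 15.4 times the variance of counting.

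A mean of 10 normalized counts was required, and log2(value + 1) was tested with limma 3.58.1 in R 4.3.3 (trend, robust) and Benjamini-Hochberg adjustment. The test and the removal of the length trend were also run on simulated counts. Recovery rates are not given here, so this is no measure of power for changes as small as those of the members. Lengths came from GENCODE vM1 (94.3% of symbols matched). The length trend was a lowess (span 0.3) of each library minus the mean of all libraries on log10 length. Alternatives were DESeq2 1.42.0, edgeR 4.0.16 and limma-voom on the recovered reads, TMM scaling, no filter or a minimum of 50, pseudocounts of 0.5 and 5, a replicate block, other length measures and the omission of each library. No exact permutation test was needed. The members and lists were chosen with earlier results of these data known. Named genes are the members, up to 6 called genes per list and direction, 5 fixed ligands and adaptors and the 5 most similar genes. Values given as ± are SDs. Of the further microglia list, 1 called gene is not reported here by name.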

Additional observations from a re-analysis of the deposited data

Results flagged for a closer look

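Among 42 named genes, each genotype's 4 libraries were searched for a value that stands away from the other 3 (Dixon's test, 95% level) and 6 of the 84 groups had one (chance alone marks about 1 in 20). Among the members it was Tyrobp in wild-type replicate 3, at 103.9 normalized counts where the others lay between 140.9 and 146.7. Without that library the log2 fold change of Tyrobp was 0.31 in place of 0.42 and was not called. Mbd2-/- replicate 4 gave 3 of the 6 values: Clu at 11932 (others 13204 to 13276), Pkp2 at 373 (415 to 419) and Slc25a25 at 569 (713 to 729). Pkp2 and Slc25a25 were named because their deviations follow the mean of the members, which is low in that library, so that the chance rate does not apply to them. The remaining values were Irf8 in wild-type replicate 2 at 76.7 (56.5 to 60.0) and Cd63 in wild-type replicate 1 at 664 (610.2 to 617). The cause was not tested.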

How the results depend on the processing

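The 9 log2 fold changes kept their direction and their side of the threshold in 81 of 81 values with DESeq2, edgeR, limma-voom, TMM scaling, other filters, other pseudocounts and the replicate block. In the block fit 6 of the 9 members were called, and the labels' replicate numbers did not pair the libraries (correlations of -0.10, -0.06, 0.07 and 0.04 for numbers 1 to 4). With the length trend removed, 3 of the 9 members were called, further microglia genes had 3 called higher and 1 lower, with the block added 4 higher, by summed exons 4 higher and 1 lower, and by the median transcript 6 higher and 0 lower. By the longest transcript, with or without the block, the values were 0.19 for Csf1r, 0.18 for C1qa, 0.074 for C1qc, 0.079 for Tyrobp, 0.35 for Trem2, 0.36 for Aif1 and 0.20 for C1qb, which of these 2 fits was called in the one with the block, where 4 members were called. By summed exons they were 0.17 for Csf1r, 0.18 for C1qa, 0.20 for C1qb, 0.17 for C1qc, 0.090 for Tyrobp, 0.32 for Trem2 and 0.46 for Aif1 (still called), and by the median transcript 0.18 for Csf1r, 0.19 for C1qc and 0.29 for Tyrobp. The cause was not tested.

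With each library left out in turn, 3 (without Mbd2-/- replicate 2) to 8 (without Mbd2-/- replicate 4) members were called, and 1 to 5 with the length trend removed (1 without Mbd2-/- replicate 2, 5 without Mbd2-/- replicate 4). Lower calls ran from 0 to 2 in further microglia genes, 3 to 8 in complement genes and 1 to 3 in partner genes, each highest without Mbd2-/- replicate 4. The log2 fold changes ran from 0.12 to 0.15 for Csf1r, 0.18 to 0.23 for Cx3cr1, 0.23 to 0.39 for C1qc, 0.31 to 0.50 for Tyrobp, 0.22 to 0.36 for Trem2 and 0.10 to 0.37 for P2ry12. With the length trend removed they ran from 0.18 to 0.23 for Csf1r, 0.13 to 0.23 for C1qa, 0.14 to 0.28 for C1qb and 0.035 to 0.13 for C1qc. Under the same correction they ran from 0.28 to 0.43 for Trem2, 0.047 to 0.32 for P2ry12 and -0.037 to 0.13 for Tyrobp, which changed sign without wild-type replicate 3. Partner genes called higher were 2 in place of 3 with edgeR, DESeq2, no filter or the replicate block. Depth limits Aif1 most, with 26 reads in its lowest library.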

Other observations

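The C1q domain also occurs in secreted proteins that organise synapses or circulate as hormones. Of 15 such genes 14 were in the table and 10 were tested, of which 1 rose and 2 fell, with a median log2 fold change of 0.05, beside 12.0% of all tested genes called higher and 10.0% lower. The counts were again 1 and 2 with the length trend removed, and 3 and 2 without Mbd2-/- replicate 4, beside 17.9% and 17.7%. Fam132a (C1qtnf12), an adipokine-like protein, had 96.7 to 128 normalized counts in wild-type and 144 to 196 in Mbd2-/- libraries (0.60, adjusted p = 0.00224, limma). Cbln1, a synapse organiser that links neurexins to delta receptors, had 61.1 to 73.4 and 28.8 to 57.4 (-0.60, adjusted p = 0.0240), and Cbln2 changed by -0.32 (adjusted p = 0.0219), each called in 4 of 8 single-library omissions. Cbln1 lost its call without wild-type replicate 1, 2 or 4 or Mbd2-/- replicate 2, and Cbln2 without wild-type replicate 1, 3 or 4 or Mbd2-/- replicate 1. The hippocampal members C1ql2 (0.17) and C1ql3 (0.01), named after their values were seen, were not called. C1ql2 was called without Mbd2-/- replicate 4 (0.27, adjusted p = 0.000199, limma), and also with the length trend removed as well (0.14, adjusted p = 0.0373).

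Under the minimum of 10 normalized counts lay 7 complement and 5 border macrophage genes, which were not tested. Among these, C4a, C1rl and Lyve1 had genotypes that did not overlap, and they were named after their values were seen. The share of such separations among all genes under the minimum was not computed, so they cannot be read as genotype differences. C4a had 10.5, 13.5, 13.7 and 13.8 normalized counts in wild-type and 2.55, 4.57, 9.56 and 3.84 in Mbd2-/- libraries, from 2 to 26 reads each. Reads of C4a can be divided with its near-identical neighbour C4b, so its value is uncertain. C1rl had 1.499, 5.27, 2.73 and 4.25 in wild-type and 15.3, 10.1, 6.38 and 9.61 in Mbd2-/- libraries, from 1 to 12 reads. Lyve1, a marker of border macrophages and lymphatic vessels, had 13.5, 14.3, 11.9 and 14.3 in wild-type and 8.94, 2.74, 1.59 and 8.65 in Mbd2-/- libraries.

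Of 7 red blood cell genes only Alas2 was matched in the table, and it was called lower (-0.23), so the blood content of the libraries cannot be read from this list.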
